A study of Mus musculus with 12 samples.

Results

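The 8 genes described here make, break down, or move glutamine, glutamate, and ammonia, apart from Slc1a4, which carries alanine, serine, cysteine, and threonine. They are Glul, Gls2, Glud1, Oat, Rhbg, Slc1a2, Slc1a4, and Slc1a5, which were looked up by symbol, and all 8 were found among the 24421 genes counted. RNA had been sequenced from 6 liver tumors and from non-tumoral liver of what were taken as the same 6 aged mice on a standard diet. Of these mice, 4 were p21+/Tert, which express Tert (the catalytic subunit of telomerase) from the Cdkn1a (p21) promoter, and 2 were p21+/TertCi, which express a catalytically inactive Tert from that promoter. The endogenous Tert gene was left intact in both, so every liver used as a reference also carried a transgene, and no WT liver was compared. The tumors of p21+/TertCi mice were TCi-HCC981 and TCi-HCA984, and those of p21+/Tert mice were T-HCA992, T-HCC941, T-HCC663, and T-HCC662. HCC stands for hepatocellular carcinoma and HCA for hepatocellular adenoma, although the histology of the study lists T-HCC663 as an adenoma.

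Tumors were placed in classes by their mutations. T-HCC662 and T-HCC663 carried a mutation of Ctnnb1, the gene of β-catenin. T-HCC941 was mutated in Egfr and TCi-HCC981 in Hras, and the adenomas T-HCA992 and TCi-HCA984 had neither. The last 4 are called the other tumors. Both Ctnnb1-mutated tumors came from p21+/Tert mice, as did T-HCC941 and T-HCA992 of the other tumors, and no p21+/TertCi tumor had a Ctnnb1 mutation. Each class rests on 2 to 4 animals. The livers are named by their labels, as p_961, p_663, p_941, NT_992, L981_CI, and L984_CI. Their numbers match those of the tumors but for p_961. It was taken by elimination as the liver of the mouse with T-HCC662, and every value of T-HCC662 against its own liver rests on this.

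In normal liver these genes are divided along the lobule. Periportal hepatocytes, which meet portal blood first, hydrolyze glutamine with the liver glutaminase Gls2 and pass the ammonia to the urea cycle. Pericentral hepatocytes, the last before the central vein, capture the ammonia that is left and fix it into glutamine with glutamine synthetase, the product of Glul. Wnt and β-catenin signaling is known to maintain the pericentral program, and Glul is a standard marker of β-catenin activation in liver tumors.

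The libraries held between 14571716 and 26170661 counted reads. Levels are given as CPM, read counts relative to a library size scaled by TMM, and levels of different genes are compared only as CPM per kb of exon. Differences were tested with the quasi-likelihood F test of edgeR over all genes that passed its filter on low counts, which all 8 did, and "rose" and "fell" are used where the Benjamini-Hochberg adjusted p was under 0.05. All libraries held hepatocyte RNA, since the summed level of 5 hepatocyte markers (Alb, Apoa1, Ttr, Apoc3, and Hnf4a) was 26601 to 50051 CPM in livers, 16018 to 32818 in the Ctnnb1-mutated tumors, and 62340 to 92792 in the other tumors. In the other tumors Alb alone of the 5 was called, with a mean of 62401 CPM against 21090 in livers, while Ttr (3450 against 5304) and Apoc3 (1811 against 3050) were lower on average and Hnf4a was 667 against 693.

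The positions of the genes were taken from GENCODE M21 on GRCm38. Glul lies at chr1:153899944-153909723 (plus strand), Gls2 at chr10:128194457-128210004 (plus), and Glud1 at chr14:34310727-34345265 (plus). Oat lies at chr7:132557478-132576398 (minus) and Rhbg at chr3:88242874-88254709 (minus). Slc1a2 lies at chr2:102658659-102790784 (plus), Slc1a4 at chr11:20302180-20332713 (minus), and Slc1a5 at chr7:16781340-16798274 (plus). Reads of 3 members may be shared with near-identical sequence, namely Glul with Glns-ps1, Glud1 with Glud-ps and Gm43444, and Rhbg with the overlapping gene Gm38392, and none of these 4 symbols is among those counted. Gls2 overlaps Spryd4 and Glul overlaps Teddm2 on the opposite strand, and without a stated strand setting such reads cannot be told apart. Teddm2 itself received at most 84 reads in a library. Spryd4 received 397 reads in T-HCC662 and 467 in T-HCC663, where Gls2 had 211 and 134. The microRNA gene Mir8114 overlaps Glul on the same strand and received at most 319 reads. Slc1a2 overlaps the antisense gene Gm13872, and Oat overlaps Fgfr2 on the same strand.

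Across the 12 libraries 4 of the genes, Glul, Oat, Rhbg, and Slc1a2, split the tumors in the same way. In both Ctnnb1-mutated tumors their level was above that in all 6 livers, and in all 4 other tumors it was below that in all 6 livers. Of 15182 genes, 13.1% lay above all livers in both Ctnnb1-mutated tumors and 12% below. In the 4 other tumors 8.96% lay above and 7.36% below. The share of genes that lay above in the Ctnnb1-mutated tumors and also below in the other tumors was not counted. Slc1a4 was above all livers in 6 of 6 tumors, a pattern shared by 2.91% of genes. Slc1a5 and Gls2 departed mainly in the Ctnnb1-mutated tumors, upward and downward, and Glud1 had no direction common to a class. In bulk tissue, fewer cells of a type and less RNA per cell cannot be told apart.

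**Figure D1:**
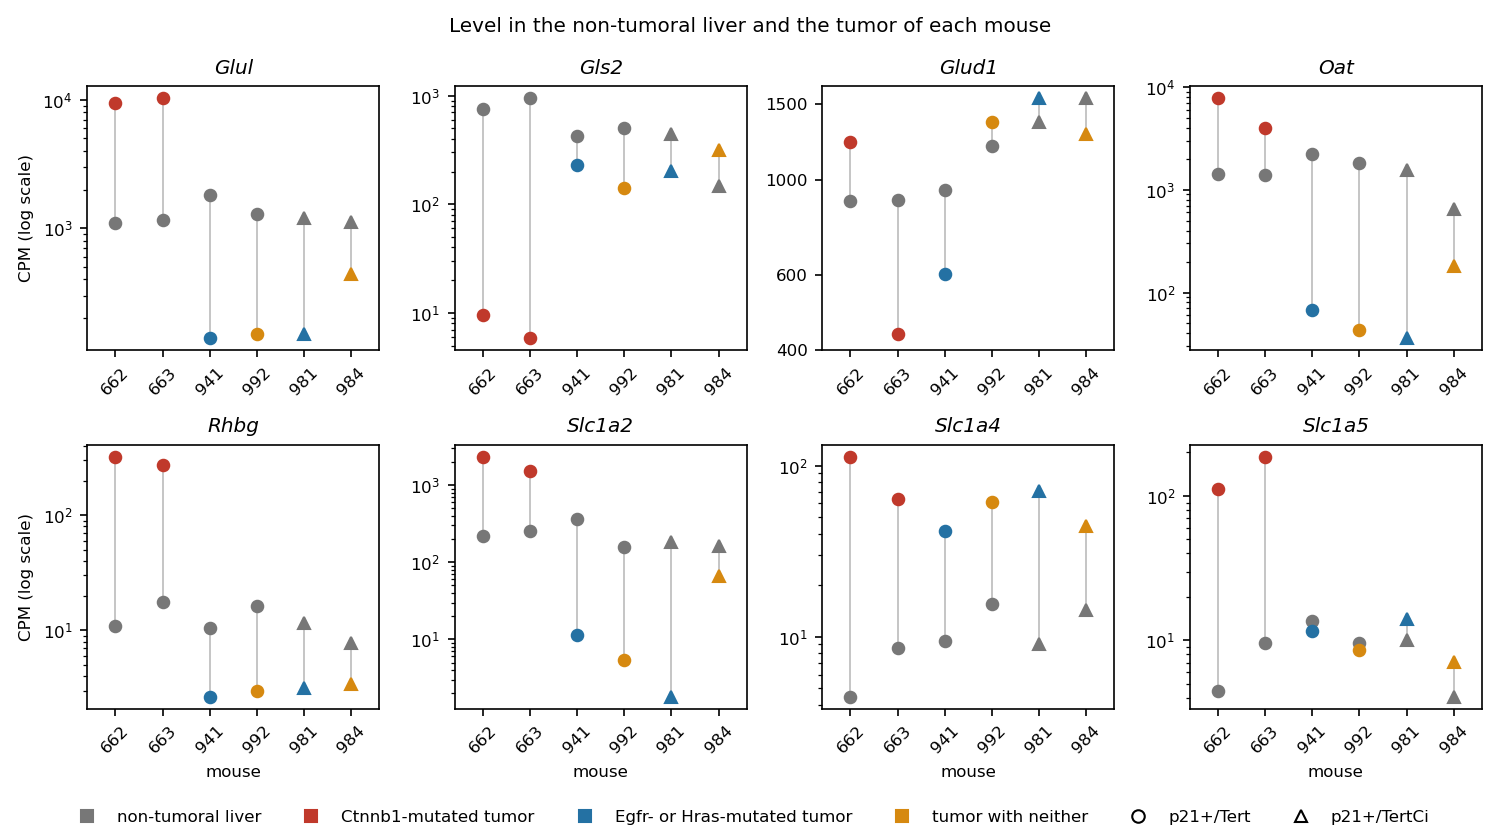
Level of each gene (CPM, log scale, with a scale of its own in each panel) in the non-tumoral liver (gray) and the tumor (color, by mutation) of each of the 6 mice, with p21+/Tert mice as circles and p21+/TertCi mice as triangles. The red points of Glul, Oat, Rhbg, and Slc1a2 sit above every gray point and the blue and orange points below, whereas all 6 tumors lie above the livers for Slc1a4.

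Counted together, the 8 genes took 0.316% to 0.525% of all reads in livers. They took 2.20% in T-HCC662 and 2.19% in T-HCC663, and between 0.117% and 0.218% in the other tumors. Glul alone made up 0.978% of the reads in T-HCC662 and 1.35% in T-HCC663.

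Glul encodes glutamine synthetase, which joins ammonia to glutamate. Its level was lowest at 1092, median 1179, and highest at 1829.7 CPM in the 6 livers. T-HCC662 held 9494 CPM and T-HCC663 10316, against 140.3 in T-HCC941, 149.8 in TCi-HCC981, 152 in T-HCA992, and 439 in TCi-HCA984. The groups did not overlap, and TCi-HCA984 stood closest to the livers. Against its own liver, that of the same mouse, Glul was 8.70-fold higher in T-HCC662 and 8.96-fold higher in T-HCC663. It was 13.0-fold lower in T-HCC941, 8.54-fold lower in T-HCA992, 8.05-fold lower in TCi-HCC981, and 2.57-fold lower in TCi-HCA984.

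Oat encodes ornithine aminotransferase, a mitochondrial enzyme that turns ornithine into glutamate semialdehyde while forming glutamate, and it is pericentral in normal liver. In livers its level ran from 649.8 to 2204 CPM, with a median of 1482. T-HCC662 held 7784 CPM and T-HCC663 3944, against 68.0 in T-HCC941, 36.2 in TCi-HCC981, 43.4 in T-HCA992, and 183 in TCi-HCA984. Relative to the own liver, Oat was 5.46-fold higher in T-HCC662 and 2.83-fold higher in T-HCC663. It was 32.4-fold lower in T-HCC941, 41.9-fold lower in T-HCA992, and 42.5-fold lower in TCi-HCC981, but only 3.55-fold lower in TCi-HCA984.

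Rhbg encodes a membrane channel for ammonia. It was a weakly expressed gene in livers, at 7.80 to 17.5 CPM with a median of 11.3, and T-HCC662 reached 322 and T-HCC663 276 CPM. The other tumors held 2.65 (T-HCC941), 3.18 (TCi-HCC981), 2.97 (T-HCA992), and 3.41 CPM (TCi-HCA984). These 4 values rest on 49 to 83 reads a library, lay close together, and were all below the lowest liver. Relative to the own liver, Rhbg was 29.2-fold higher in T-HCC662 and 15.8-fold higher in T-HCC663.

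Slc1a2 encodes a high-affinity glutamate carrier, known in brain as GLT-1 and in liver as a pericentral gene. It ran from 157 to 364 CPM in livers, with a median of 199, while T-HCC662 held 2323 and T-HCC663 1535 CPM. It was 11.4 in T-HCC941, 1.80 in TCi-HCC981 (35 reads), 5.45 in T-HCA992, and 66.7 in TCi-HCA984. The spread among the other tumors was wider than for any of the other 7 genes, since TCi-HCC981 was 102-fold below its own liver and TCi-HCA984 2.41-fold below. The coefficient of variation over these 4 tumors was 143% for Slc1a2, against 82.6% for Oat, 66.3% for Glul, and 10.6% for Rhbg.

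Because Glul, Oat, and Slc1a2 moved together, the 250 bases upstream of their RefSeq start sites (GRCm38.p6, 5′ to 3′ on the strand of the gene) are shown here. Promoters of 5 of the 8 members were held in the table used (Glul, Slc1a2, Oat, Slc1a4, and Glud1). They were searched on both strands for CTTTGAA or CTTTGAT, the core sequence bound by TCF and LEF factors, the DNA-binding partners of β-catenin, and a match is in capitals. The Slc1a2 window lies inside the longer GENCODE gene, at chr2:102706188-102706437, that of Glul at chr1:153899679-153899928, and that of Oat at chr7:132576399-132576648.
Slc1a2: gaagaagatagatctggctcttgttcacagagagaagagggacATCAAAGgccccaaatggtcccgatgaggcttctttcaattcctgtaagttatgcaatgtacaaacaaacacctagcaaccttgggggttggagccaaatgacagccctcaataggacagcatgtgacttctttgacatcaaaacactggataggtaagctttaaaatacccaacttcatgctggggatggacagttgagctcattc
Glul: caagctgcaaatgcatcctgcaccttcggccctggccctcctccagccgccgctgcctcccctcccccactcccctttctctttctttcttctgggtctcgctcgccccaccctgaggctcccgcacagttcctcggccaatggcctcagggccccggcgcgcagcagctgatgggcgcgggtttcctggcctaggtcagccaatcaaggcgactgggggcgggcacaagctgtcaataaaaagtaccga
Oat: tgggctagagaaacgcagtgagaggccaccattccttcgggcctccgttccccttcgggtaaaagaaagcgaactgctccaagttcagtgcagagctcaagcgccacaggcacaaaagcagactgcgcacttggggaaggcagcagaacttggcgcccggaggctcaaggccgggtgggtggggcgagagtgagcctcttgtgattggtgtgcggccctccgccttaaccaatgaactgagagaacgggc
Slc1a2 had 1 match, written ATCAAAG on the strand shown and starting 207 bases before the start site, and the windows of the other 4 genes had none. Of all 32851 promoters of this length, 2457 (7.48%) held a match. The GC content was 44.8% for Slc1a2, 64.8% for Glul, 60.0% for Oat, 64.8% for Slc1a4, and 82.0% for Glud1, against a median of 52.4% over all promoters. A match of letters is a description of the sequence, not of binding.

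Gls2, the liver glutaminase, hydrolyzes glutamine to glutamate and ammonia. It varied more among livers than the other 7 genes, from 147 to 949.9 CPM with a median of 471, and the lowest liver was L984_CI. T-HCC662 held 9.51 CPM and T-HCC663 5.87, which was 78.7-fold and 162-fold below their own livers. The other tumors held 228 (T-HCC941), 200.1 (TCi-HCC981), 141 (T-HCA992), and 313 CPM (TCi-HCA984). Of these, 3 lay within the range of the livers, and T-HCA992 was just below the lowest. TCi-HCA984 was the only one of the 6 tumors in which Gls2 was higher than in the own liver, by 2.13-fold.

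Glud1 encodes mitochondrial glutamate dehydrogenase, which releases ammonia from glutamate or takes it up. It ran from 893 to 1555 CPM in livers with a median of 1075. The tumors held 1224 (T-HCC662), 436 (T-HCC663), 601 (T-HCC941), 1554 (TCi-HCC981), 1368 (T-HCA992), and 1280.2 CPM (TCi-HCA984). It was higher than in the own liver in 3 tumors and lower in 3, and the largest departure was in T-HCC663, at 2.06-fold lower. The 2 Ctnnb1-mutated tumors lay on opposite sides of the livers of their own mice.

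Slc1a4 encodes a carrier of alanine, serine, cysteine, and threonine (ASCT1). It was scarce in livers, at 4.45 to 15.5 CPM with a median of 9.24. T-HCC662 held 112 CPM and T-HCC663 63.9, beside 41.3 in T-HCC941, 71.2 in TCi-HCC981, 61.2 in T-HCA992, and 44.3 CPM in TCi-HCA984. All 6 tumors exceeded their own livers, by 3.11-fold in TCi-HCA984 to 25.3-fold in T-HCC662, and the lowest tumor held more than the highest liver.

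Slc1a5 encodes ASCT2, a sodium-dependent carrier of glutamine and other neutral amino acids. It ran from 4.07 to 13.7 CPM in livers with a median of 9.64, while T-HCC662 held 112 and T-HCC663 187 CPM. The other tumors held 11.6 (T-HCC941), 14.0 (TCi-HCC981), 8.60 (T-HCA992), and 7.10 CPM (TCi-HCA984). All but TCi-HCC981, just above the highest liver, were within the range of the livers. Slc1a4 and Slc1a5 had equal counts in both libraries of 1 mouse, with 63 reads each in liver p_961 and 2495 reads each in T-HCC662, and differed in the other 10 libraries.

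The first question was what the tumors share against non-tumoral liver. In the comparison of all 6 tumors with all 6 livers, 1 of the 8 genes was called, against 10.7% of the 13822 genes tested (6.77% higher and 3.91% lower). Slc1a4 rose by 2.68 ± 0.32 on the log2 scale (SE, n = 6 and 6), or 6.39-fold, with an adjusted p of 0.000701 in edgeR. It kept its call when any of the 12 libraries was left out and with the mouse as a block. Slc1a5 was 2.71 ± 0.82 higher, with an adjusted p of 0.0518 in edgeR and 0.00246 in DESeq2. That of edgeR was 0.0435 without T-HCA992, 0.049 without TCi-HCC981, and 0.0306 without TCi-HCA984. Rhbg was 3.02 ± 1.21 higher (adjusted p = 0.132 in edgeR and 0.045 in DESeq2) and Gls2 1.84 ± 0.79 lower (a log2 fold change of -1.84, adjusted p = 0.16 in edgeR). For genes that move in opposite directions in the tumors, the sign of this comparison depended on the fit. Glul had a log2 fold change of 1.40 without and -1.27 with the mouse as a block, Oat 0.40 and -2.70, Rhbg 3.02 and -0.26, and Slc1a2 1.54 and -2.41, and none of these values was called in either fit of edgeR.

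The tumors were therefore compared by class. In the 2 Ctnnb1-mutated tumors, 7 of the 8 genes were called against the 6 livers, 6 higher and 1 lower, where 8.2% of 15182 genes were called (5% higher and 3.2% lower). Rhbg rose 23.7-fold (log2 fold change 4.57 ± 0.24 SE, adjusted p = 5.32e-06 in edgeR) and Slc1a5 17.1-fold (4.10 ± 0.36, adjusted p = 0.000167 in edgeR). Slc1a4 rose 8.47-fold (3.08 ± 0.36), Slc1a2 8.52-fold (3.09 ± 0.69), Glul 7.57-fold (2.92 ± 0.36), and Oat 3.84-fold (1.94 ± 0.51). Gls2 fell 70.4-fold, with a log2 fold change of -6.14 ± 0.79 and an adjusted p of 0.00109 in edgeR. Glud1 had a log2 fold change of -0.49, with a 95% confidence interval of -1.49 to 0.51. The calls of Slc1a2 (adjusted p = 0.0197 in edgeR) and Oat (0.0399) depended on single libraries and on the fit. With the mouse as a block the adjusted p of edgeR was 0.0822 for Slc1a2 and 0.184 for Oat. Slc1a2 was not called without T-HCC662 (adjusted p = 0.118 in edgeR) or T-HCC663 (0.0506). Oat was not called without T-HCC662 (adjusted p = 0.302 in edgeR), T-HCC663 (0.0628), or the livers p_961 (0.0726), p_663 (0.0731), NT_992 (0.0601), and L981_CI (0.0552). The other 5 calls held in each of the 8 fits that left out 1 library and with the block over 6 pairs. With the block over the 5 pairs that the labels give, which leaves T-HCC663 as the 1 Ctnnb1-mutated tumor, only Slc1a5 was called, and the adjusted p of edgeR was 0.0577 for Rhbg, 0.0714 for Slc1a4, 0.0833 for Gls2, and 0.164 for Glul.

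In the 4 other tumors, 5 of the 8 genes were called against the 6 livers, 1 higher and 4 lower, where 22.8% of genes were called (11.3% higher and 11.5% lower). Oat fell 19.8-fold (log2 fold change -4.31 ± 0.54 SE, adjusted p = 0.000388 in edgeR) and Slc1a2 14.6-fold (-3.87 ± 0.72, adjusted p = 0.00341 in edgeR). Without TCi-HCA984, the log2 fold change was -5.01 for Oat and -5.24 for Slc1a2, and without T-HCC941 it was -4.80 for Slc1a2. Glul fell 6.26-fold (-2.65 ± 0.35) and Rhbg 4.11-fold (-2.04 ± 0.23), whereas Slc1a4 rose 5.27-fold (2.40 ± 0.32). All 5 calls held in each of the 10 fits that left out 1 library and with the mouse as a block. Gls2 was 2.44-fold lower (log2 fold change -1.29 ± 0.44), with an adjusted p of 0.0554 in edgeR and 0.0121 in DESeq2, and of 0.0108 in edgeR without liver L984_CI. Slc1a5 had a log2 fold change of 0.21 (95% confidence interval -0.48 to 0.90) and Glud1 of 0.05 (-0.72 to 0.82). Both comparisons use the same 6 livers. The median absolute log2 fold change of the 8 genes was 3.09 in the Ctnnb1-mutated and 2.22 in the other tumors, against 0.43 and 0.45 over all genes tested.

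**Figure D2:**
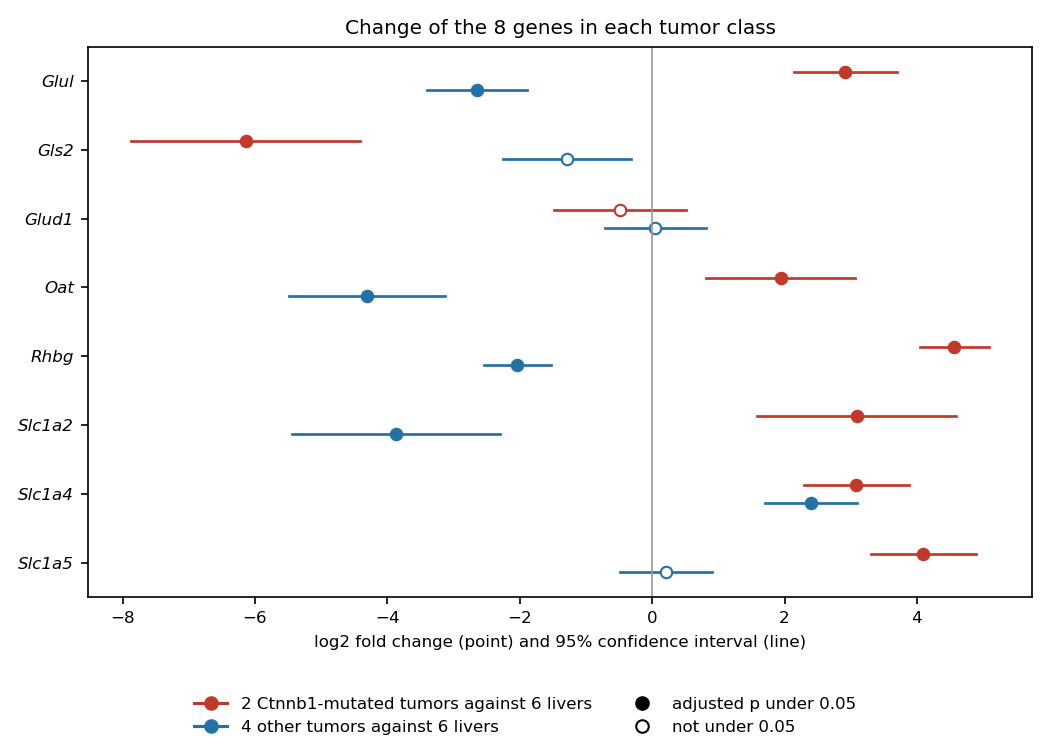
Log2 fold change against the 6 livers (horizontal axis) of the 2 Ctnnb1-mutated tumors (red) and the 4 other tumors (blue), with 95% confidence intervals as lines and filled points where the adjusted p was under 0.05. Intervals of the classes lie on opposite sides of 0 for Glul, Oat, Rhbg, and Slc1a2, and both lie above 0 for Slc1a4.

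The difference between the classes was then tested directly, in a contrast that leaves out the livers, although the livers entered the estimate of the spread. With only the libraries compared, edgeR called 839 genes and 6 of the 8, where the model of all libraries called 1896 genes. The fits with the mouse as a block use the livers as well. Between the 2 Ctnnb1-mutated and the 4 other tumors, 6 of the 8 genes were called, 5 higher and 1 lower, where 12.5% of genes were called (6.76% higher and 5.73% lower). Slc1a2 was 124-fold higher in the Ctnnb1-mutated tumors (log2 difference 6.96 ± 0.89 SE, adjusted p = 0.000943 in edgeR), and the log2 difference was 8.33 without TCi-HCA984 and 7.89 without T-HCC941. Rhbg was 97.3-fold higher (6.61 ± 0.30), Oat 75.9-fold (6.25 ± 0.63, with 6.94 without TCi-HCA984 and 5.66 without T-HCC662), Glul 47.4-fold (5.57 ± 0.44), and Slc1a5 14.8-fold (3.89 ± 0.41). Gls2 was 28.8-fold lower (-4.85 ± 0.75, adjusted p = 0.00305 in edgeR). With the mouse as a block, the log2 value of Gls2 was -6.12 here and -6.83 against the livers, and that of Slc1a4 against the livers 3.73. The 6 calls held in each of the 6 fits that left out a tumor and with the block over 6 pairs. With the block over the 5 labelled pairs, Rhbg and Slc1a5 were called, and the adjusted p of edgeR was 0.0758 for Glul, 0.105 for Gls2, 0.133 for Slc1a2, and 0.154 for Oat. Slc1a4 had a log2 difference of 0.68, with a 95% confidence interval of -0.22 to 1.59 and an adjusted p of 0.288 in edgeR, so that its rise in the Ctnnb1-mutated tumors was not shown to differ from that in the others. Glud1 had a log2 difference of -0.53 (-1.59 to 0.52).

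Synthesis and breakdown of glutamine were set side by side as the ratio of Glul to Gls2 in CPM per kb of exon. In livers the ratio was between 1.27 (p_663) and 8.04 (L984_CI). T-HCC662 had a ratio of 1044 and T-HCC663 of 1837. In the other tumors it was 0.645 (T-HCC941), 0.782 (TCi-HCC981), 1.13 (T-HCA992), and 1.47 (TCi-HCA984). On this length, Gls2 exceeded Glul in T-HCC941 and TCi-HCC981 alone among the 12 libraries, but ratios near 1 depend on the length used. The low ratios came with less of both transcripts than the median liver, while the high ratios combined more Glul with less Gls2. Per kb, Oat was the most abundant of the 8 genes in livers (638 ± 219 CPM per kb, SD, n = 6), ahead of Glul (386 ± 83.3), Glud1 (271 ± 65.7), and Gls2 (154 ± 80.5), with Slc1a2 (16.9 ± 5.98), Rhbg (6.42 ± 1.91), Slc1a4 (2.60 ± 1.03), and Slc1a5 (2.06 ± 0.881) far below. Neighbors in this order overlapped between livers, except that Gls2 and Slc1a2, Slc1a2 and Rhbg, and Rhbg and Slc1a4 did not. In the Ctnnb1-mutated tumors Glul was at 2981 ± 175 CPM per kb (n = 2) and Oat at 2485 ± 1151. In the other tumors Glud1 ranked highest at 285 ± 98.7 CPM per kb (n = 4). Glul at 66.3 ± 44.0 and Gls2 at 63.4 ± 20.6 followed, and their values overlapped. With the length of the longest transcript in place of that of all exons, these means changed order, at 78.9 for Glul and 85.6 for Gls2.

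**Figure D3:**
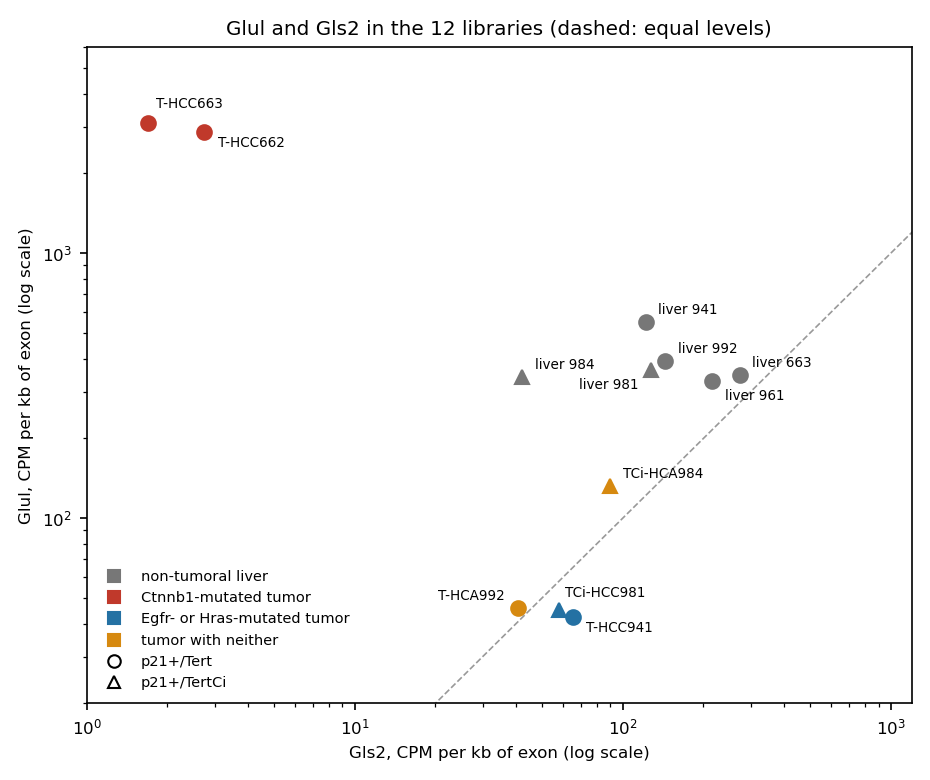
Glul (vertical) against Gls2 (horizontal) in CPM per kb of exon on log scales, 1 point for each of the 12 libraries, colored by tissue and mutation and shaped by genotype, with a dashed line where the levels are equal. The Ctnnb1-mutated tumors lie alone at the upper left, the livers above the line, and the other tumors near it.

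Markers of the zones of the lobule were compared between the same classes. Over all genes tested, 5% rose and 3.2% fell in the Ctnnb1-mutated tumors, and 11.3% rose and 11.5% fell in the other tumors. The pericentral list held 8 genes other than the members (Cyp2e1, Cyp1a2, Axin2, Lgr5, Tbx3, Cyp2c29, Rgn, and Lect2), and 8 of 8 fell in the other tumors, whereas 3 of 8 (Axin2, Tbx3, and Lect2) rose in the Ctnnb1-mutated tumors. Their summed level was 5432 to 9301 CPM in livers, 7763 to 10602 in the Ctnnb1-mutated tumors, and 446 to 2255 in the other tumors. Much of this sum was Cyp2e1, with means of 5096, 5450, and 604 CPM in this order. The periportal list held 8 genes (Cyp2f2, Hal, Sds, Hsd17b13, Pck1, Sdsl, Cdh1, and Aldh1b1), and 7 of 8 fell in the Ctnnb1-mutated tumors, while in the other tumors 2 rose and 2 fell. Their summed level was 3214 to 6258 CPM in livers, 395 to 443 in the Ctnnb1-mutated tumors, and 1895 to 3710 in the other tumors. No marker of either list was at 0 in any library. Bile duct markers (Krt19, Krt7, Epcam, and Sox9) summed to 9.33 to 21.1 CPM in livers, 3.92 to 4.91 in the Ctnnb1-mutated tumors, and 23.7 to 56.6 in the other tumors. In the other tumors only Sox9 of these was higher than in livers (means of 32.4 and 9.74 CPM), while Krt19 (0.516 and 1.20), Krt7 (0.458 and 0.831), and Epcam (0.990 and 1.18) were lower on average, and Krt19 and Krt7 were at 0 in a library. The 4 sinusoidal endothelial markers summed to 46.4 to 136 CPM in livers, 34.8 to 76.3 in the Ctnnb1-mutated tumors, and 80.1 to 166 in the other tumors. Pecam1 (means of 40.0 in the other tumors and 10.4 in livers) and Kdr (33.3 and 18.2) were higher on average there, and Stab2 (24.8 and 29.8) and Clec4g (22.6 and 33.3) lower. The 5 stellate cell and fibroblast markers summed to 38.9 to 208 CPM in livers, 18.5 to 58.1 in the Ctnnb1-mutated tumors, and 114 to 301 in the other tumors. In the other tumors the means of Col1a1 (37.2 against 6.86 CPM), Col3a1 (66.4 against 18.1), and Acta2 (6.93 against 1.16) were above those of the livers and the means of Lrat (8.32 against 11.3) and Dcn (68.2 against 89.1) below. The 4 macrophage markers (71.8 to 737, 59.8 to 341, and 74.6 to 448 CPM), the 5 T cell markers (0.775 to 9.07, 5.86 to 19.9, and 2.10 to 26.4), and the 4 B cell markers (0.679 to 40.8, 2.43 to 4.56, and 1.48 to 17.7) overlapped between the classes, and Ms4a1, a defining B cell marker, was at 0 in a library of each class. The part of these lists in the results of the 8 genes was not tested.

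The genes around the 8 were described by lists written from general knowledge. The urea cycle disposes of the ammonia that is not fixed into glutamine. Of its 9 genes tested, 5 fell and none rose in the Ctnnb1-mutated tumors, where 3.2% of all genes fell and 5% rose. In the other tumors 5 fell and none rose as well, where 11.5% of all genes fell and 11.3% rose. The median log2 fold change was -1.62 and -0.95 over the list against -0.03 and -0.03 over all genes. Otc, Ass1, and Asl, which act in succession from carbamoyl phosphate to arginine, fell in the comparison of all tumors, with log2 fold changes of -1.96 ± 0.29, -2.82 ± 0.41, and -1.84 ± 0.29 (SE, n = 6 and 6), as did the ornithine carrier Slc25a15 (-1.22 ± 0.25). Cps1, which takes in free ammonia, and Arg1, which releases urea, separated the classes. Cps1 was 721 to 2954 CPM in livers, 125 and 117 in T-HCC662 and T-HCC663, and 849 to 1337 in the other tumors, and Arg1 was 1217 to 2111, then 25.4 and 52.6, then 756 to 1601. Between the tumor classes the log2 difference was -3.13 ± 0.54 for Cps1 (adjusted p = 0.00562 in edgeR, and 0.0555 without T-HCC662) and -4.77 ± 0.53 for Arg1 (adjusted p = 0.000455 in edgeR, and -5.37 without T-HCC663). With the mouse as a block that of Cps1 was -3.71. Rhag and Rhcg, the other ammonia channels, were near 0 in all libraries and did not pass the filter.

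Amidotransferases use the amide nitrogen of glutamine. In the comparison of all tumors, where 6.77% of genes rose and 3.91% fell, 2 of 11 tested rose and none fell. They were the CTP synthases Ctps2 (1.77 ± 0.30) and Ctps (1.37 ± 0.36), and Ctps was not called without T-HCA992 or the livers p_961, p_663, and p_941 (adjusted p of 0.0645 to 0.0714 in edgeR). Between the classes, where 5.73% of genes were lower in the Ctnnb1-mutated tumors and 6.76% higher, the list had 3 genes lower and none higher. They were Ctps2 (-1.12 ± 0.28), Pfas of purine synthesis (-0.99 ± 0.25), and Gfpt1 of hexosamine synthesis (-1.64 ± 0.43), each of which lost its call with the block, at adjusted p values of 0.188, 0.23, and 0.188 in edgeR in this order.

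Of 11 aminotransferases tested, 1 rose and 3 fell in the comparison of all tumors, where 6.77% of all genes rose and 3.91% fell. Psat1, which makes phosphoserine with nitrogen from glutamate, was 0.141 to 9.31 CPM in livers, 6.04 and 10.8 in T-HCC662 and T-HCC663, and 21.9 to 81.0 in the other tumors (log2 fold change over all tumors 4.07 ± 0.99, adjusted p = 0.0207 in edgeR, and 6.03 without liver L984_CI). Tat, of tyrosine breakdown, fell (-1.75 ± 0.41), as did Aadat (-1.66 ± 0.30) and Got1 (-1.49 ± 0.38), although Got1 was not called with the block (adjusted p = 0.0689 in edgeR) or without any of 5 libraries, the livers p_961 (0.053), p_663 (0.0539), and p_941 (0.0566), T-HCC941 (0.0586), and T-HCA992 (0.0532). Ccbl1, a transaminase that can use glutamine, was lower in the Ctnnb1-mutated than in the other tumors by 2.40 ± 0.29 (a log2 difference of -2.40, adjusted p = 0.000725 in edgeR). Against the livers, 1 of the 11 rose and 6 fell in the other tumors (11.3% and 11.5% of all genes). In the Ctnnb1-mutated tumors none rose and 2 fell (5% and 3.2% of all genes).

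Proline and ornithine metabolism meet at glutamate semialdehyde, the product of Oat. Of 6 genes tested in the comparison of all tumors, 1 rose and 1 fell, where 6.77% of all genes rose and 3.91% fell. Aldh18a1, which makes the semialdehyde from glutamate, rose (2.23 ± 0.54), with an adjusted p of 0.0515 in edgeR without liver p_961, and Prodh2, of hydroxyproline breakdown, fell (-1.23 ± 0.18). Against the livers, 1 of the 6 rose and 3 fell in the other tumors (11.3% and 11.5% of all genes). In the Ctnnb1-mutated tumors none rose and 1 fell (5% and 3.2% of all genes). Prodh, which starts the breakdown of proline, was 158 to 528 CPM in livers, 382 and 619 in T-HCC662 and T-HCC663, and 11.0 to 61.5 in the other tumors. It was higher in the Ctnnb1-mutated than in the other tumors (log2 difference 3.97 ± 0.58, adjusted p = 0.00219 in edgeR, 0.0698 with the mouse as a block, and a difference of 4.55 without T-HCC941). Pycrl, which takes part in making proline, was also higher there (0.85 ± 0.25, adjusted p = 0.0435 in edgeR). It was not called with the block (0.521), without T-HCC662 (0.36), or without any 1 of the 4 other tumors (0.0762 to 0.098).

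Of 15 other glutamine and glutamate carriers tested in the comparison of all tumors, 3 rose and 2 fell. Over all genes tested there, 6.77% rose and 3.91% fell. Slc7a11, the cystine and glutamate exchanger, was at 0 to 0.378 CPM in livers and was found in all 6 tumors, at 4.91 and 10.7 CPM in T-HCC662 and T-HCC663, 71.6 in T-HCC941, 131 in TCi-HCC981, 9.28 in T-HCA992, and 53.2 in TCi-HCA984. Slc1a1, another glutamate carrier of the family of Slc1a2, was at 0 to 0.322 CPM in livers, 0.541 and 1.05 in T-HCC662 and T-HCC663, and 5.00 to 27.5 in the other tumors. Slc1a1 and Slc1a2 thus ranked the tumor classes in opposite order, with a log2 difference between the Ctnnb1-mutated and other tumors of -3.71 ± 0.75 for Slc1a1 (adjusted p = 0.0112 in edgeR, 0.67 with the block, and 0.0998 without T-HCC662) and 6.96 ± 0.89 for Slc1a2. Slc7a7, which exchanges basic for neutral amino acids, rose (2.24 ± 0.34), and Slc38a4, a sodium-coupled carrier, fell (-1.05 ± 0.28, adjusted p = 0.0325 in edgeR). Slc38a4 was not called in 7 of the 12 fits that left out 1 library, with adjusted p values of up to 0.0736. The second that fell, Slc38a3, a glutamine carrier, was outside the rule for named genes and is given to complete the count (-1.15 ± 0.32). Of 18 carriers tested by class, 3 rose and 4 fell in the other tumors (11.3% and 11.5% of all genes). In the Ctnnb1-mutated tumors 3 rose and none fell (5% and 3.2% of all genes).

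Glutathione is built from glutamate. Of 5 genes tested 2 rose and none fell over all tumors, where 6.77% of all genes rose and 3.91% fell. Ggct, of glutathione breakdown, rose by 1.39 ± 0.26 and Gss, glutathione synthetase, by 0.67 ± 0.18 on the log2 scale, although Gss was not called in 8 of the 12 fits that left out 1 library (adjusted p of up to 0.0747 in edgeR). Over all lists, 18 genes are named from the comparison of all tumors with livers, and 13 of them kept their call in each fit that left out 1 library and with the block over 6 pairs. Of the 12 named from the comparison of the tumor classes, 2 did so (Ccbl1 and Arg1), and with the block over 5 pairs their adjusted p in edgeR was 0.0707 and 0.057. The others of the 12 that are not given above were Slc25a22 (1.23 ± 0.33), Slc7a5 (1.74 ± 0.52), and Slc7a11 (-2.86 ± 0.84), whose largest adjusted p values in edgeR without 1 tumor were 0.208, 0.279, and 0.244.

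**Figure D4:**
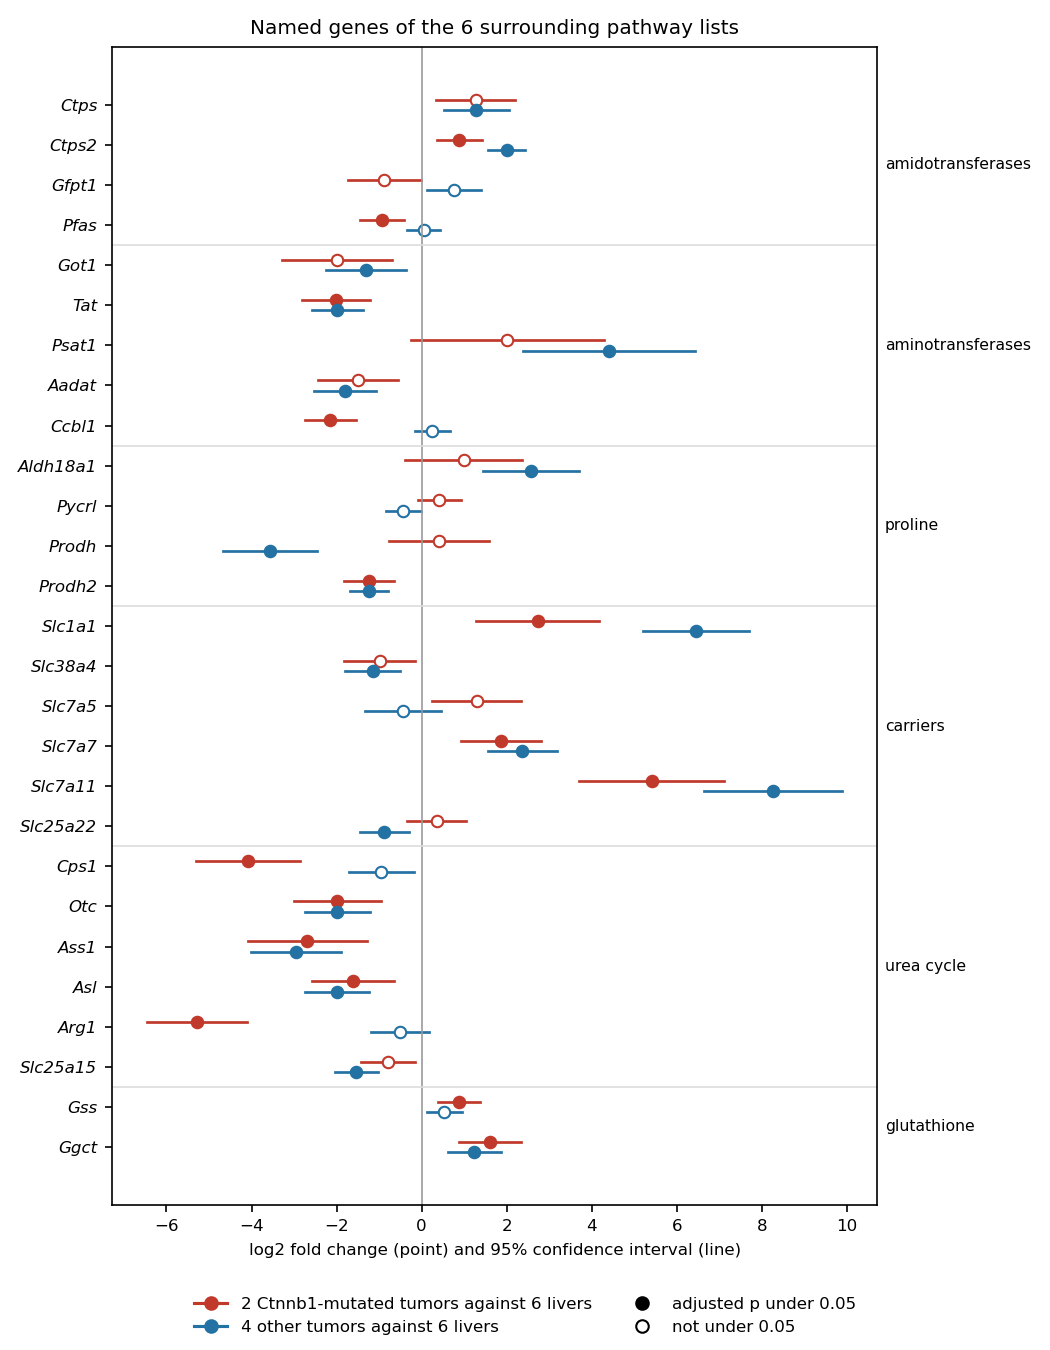
Log2 fold change against the 6 livers (horizontal axis, with 95% confidence intervals as lines) of the genes named from 6 lists around glutamine and glutamate, for the 2 Ctnnb1-mutated tumors (red) and the 4 other tumors (blue), filled where the adjusted p was under 0.05. Urea cycle genes lie below 0 in both classes, with Cps1 and Arg1 farther below in the Ctnnb1-mutated tumors, and Slc1a1 and Slc7a11 lie above 0 in both.

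Among the 4 other tumors, the carcinomas mutated in Egfr or Hras were compared with the adenomas that had neither mutation (n = 2 and 2). None of the 8 genes was called, and edgeR called 0% of genes. At an unadjusted p under 0.05, edgeR had 1331 genes (8.77%) and 1 of the 8, and DESeq2 called 105 genes and none of the 8. The 1 gene was Slc1a2, with a log2 difference of -2.49 (95% confidence interval -4.66 to -0.32), and it turned to 0.25 when TCi-HCA984 was left out. Glul had a log2 difference of -1.06 (-2.12 to 0.00) and Oat of -1.15 (-2.67 to 0.36). The other adenoma, T-HCA992, lay between the carcinomas for Oat and Slc1a2 and just above them for Glul.

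Active and inactive Tert were compared in 3 ways. In the livers (2 p21+/TertCi against 4 p21+/Tert) none of the 8 genes was called, and edgeR called 0% of genes, with 1107 (7.29%) at an unadjusted p under 0.05, where DESeq2 called 99 genes and none of the 8. The 1 member at an unadjusted p under 0.05 was Gls2, at 442 and 147 CPM in the p21+/TertCi livers and 423 to 949.9 in the p21+/Tert livers, which overlapped (log2 difference -1.14, 95% confidence interval -2.25 to -0.03). Glud1 was higher in both p21+/TertCi livers (1363 and 1555 CPM) than in all 4 p21+/Tert livers (893 to 1202), a pattern shared by 6.75% of genes, with a log2 difference of 0.58 (-0.37 to 1.54). For the other 6 genes the intervals spanned 0 as well, the narrowest being that of Rhbg (-1.05 to 0.06).

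In tumors without a Ctnnb1 mutation (2 p21+/TertCi against 2 p21+/Tert, with 1 mutated in Egfr or Hras and 1 with neither on each side) none of the 8 genes was called, and edgeR called 0.00659% of genes, which is 1 gene. At an unadjusted p under 0.05 it had 1217 genes (8.02%) and none of the 8, and DESeq2 called 161 genes and none of the 8. All 8 log2 differences were above 0, from 0.08 for Slc1a5 to 2.06 for Slc1a2, and each interval reached below 0. Those of Slc1a2 (-0.34 to 4.46), Oat (-0.56 to 2.57), and Glul (-0.08 to 2.14) reach far above 0. These libraries therefore do not show the genotypes to be alike. The share of all genes above 0 was not counted, and their median was 0.03. For Slc1a2 and Oat, TCi-HCA984 was highest (66.7 and 183 CPM). TCi-HCC981 (1.80 and 36.2) was below T-HCA992 (5.45 and 43.4) and T-HCC941 (11.4 and 68.0). Leaving out 1 tumor moved the log2 difference to as low as -2.22 for Slc1a2 and -0.62 for Oat. The difference in tumor change between the genotypes, tested as an interaction without the Ctnnb1-mutated tumors, called 0% of genes in edgeR, with 658 (4.33%) at an unadjusted p under 0.05, and none of the 8. DESeq2 called 20 genes and none of the 8. Gls2 had the value at an unadjusted p under 0.05, a log2 difference of 1.64 (0.01 to 3.28), and liver L984_CI had the lowest Gls2 of the 6 livers.

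**Figure D5:**
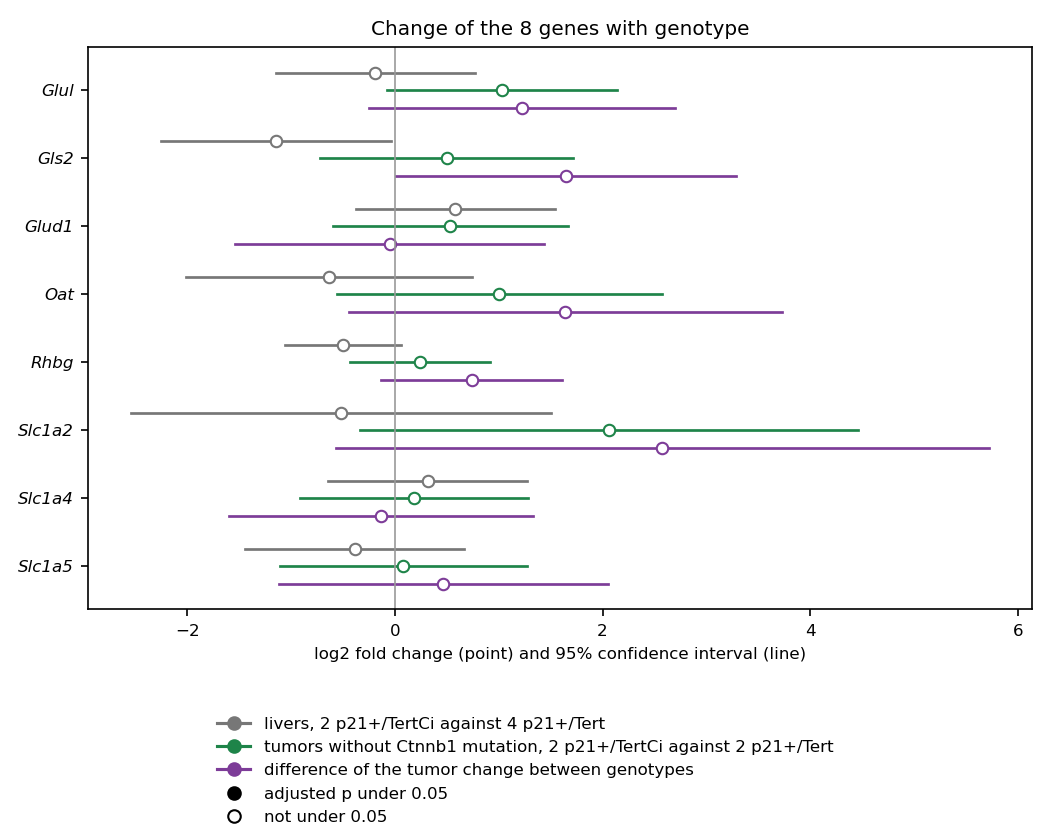
Log2 differences of p21+/TertCi from p21+/Tert mice (horizontal axis, with 95% confidence intervals as lines) in livers (gray), in tumors without a Ctnnb1 mutation (green), and in the change from liver to tumor (purple). All points are open, since no adjusted p was under 0.05, and the interval of Slc1a2 in the tumor change runs from -0.57 to 5.72.

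For each gene, those with the most similar pattern over the 12 libraries were named by Pearson's r of log2(CPM + 1) among 13382 genes with a mean of at least 1 CPM. These values are a description, since the libraries fall into classes that lie far apart and share their depth between genes. Glul was closest to Sp5 (r = 0.99), Lhpp (0.983), and Axin2 (0.98), and Rhbg to Nkd1 (0.984), Gstm2 (0.963), and Axin2 (0.96). Sp5, Axin2, and Nkd1 are known targets of Wnt signaling. Oat was closest to Acaa1a (0.984), Lhpp (0.974), and Olig1 (0.971), and Slc1a2 to Lgr5 (0.972), a Wnt target and receptor, Oat (0.97), and Acaa1a (0.968). Gls2 was closest to Cps1 (0.986), Sds (0.973), and Cryl1 (0.969), of which Cps1 and Sds are periportal. Slc1a5 was closest to Cln6 (0.976), Atp10a (0.959), and Lef1 (0.953), Slc1a4 to Pdlim7 (0.964), Drosha (0.955), and Atf3 (0.941), and Glud1 to Gm19897 (0.951), Atp6v0c (0.895), and Atp6v0c-ps2 (0.895).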

How the data were processed

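RNA of 6 livers and 6 tumors was sequenced as paired-end, poly(A)-selected libraries. According to the methods and labels, alignment by the authors was to mm10 with Subread, and the deposited count of reads per gene came from featureCounts 1.6.4, as 1 unnormalized table per sample. The strand setting, the annotation release, and the sequencing run of each sample are not given in the sources used here, so no batch term could be fitted.

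Counts were tested with edgeR 4.0.16 (R 4.3.3): TMM scaling, filterByExpr, and the quasi-likelihood F test, with Benjamini-Hochberg adjustment over all genes tested and a threshold of 0.05. Tumors and livers were compared in a model of 2 groups, and tumor classes and genotypes in models that share 1 estimate of the spread over the 12 libraries. The numbers in the labels put tumor and liver of 1 mouse together, except T-HCC662 and p_961, which were paired by elimination. Deviations of the members of a pair from the means of their groups correlated at 0.042 to 0.547 over 13822 genes. The value of 0.547 is that of both p21+/TertCi mice, and it must be equal because their groups hold 2 libraries each. The group of p21+/Tert tumors mixes Ctnnb1-mutated and other tumors. Mouse as a block was an alternative, with DESeq2 1.42.0, other filters, and leaving out each library. No libraries were duplicates, since the smallest chi-square per degree of freedom between a pair was 74.5. The script was tested on simulated data with 200 changed genes and recovered 188 for tumors against livers, 164 and 176 for the Ctnnb1-mutated and other tumors, 150 for the difference of the classes, and 87 to 153 for the other comparisons. The lowest, 87, was that of the tumor change between genotypes. Planted changes were at least 2 on the log2 scale, in well counted genes, and libraries were drawn without a mouse effect. False calls ran from 2 to 11. Depth was 14571716 to 26170661 counts a library.

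Named were all 8 members, from each of 6 pathway lists the genes past the threshold between tumors and livers or between tumor classes (at most the 4 of smallest p in each), and the 3 genes most like each member. Members and lists were chosen with earlier results of these data known. Gene positions came from GENCODE M21 and promoters from RefSeq. The p-values of the fits without the block measure the spread between libraries of different animals within groups, pooled over the groups. These fits treat tumor and liver of the same mouse as independent. A few genes of these lists are not reported here.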

Additional observations from a re-analysis of the deposited data

Results flagged for a closer look

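Among 40 checks of a library against the rest of its group, 3 values in 2 libraries stood apart by Dixon's test, where chance gives about 1 in 20. Glul was 1829.7 CPM in liver p_941, with 1298 in the next of the 6 livers. Glul was 439 CPM in TCi-HCA984, against 152 in the next of the 4 other tumors, and Slc1a2 was 66.7 CPM there, against 11.4. Leaving TCi-HCA984 out moved Oat and Slc1a2 further from the livers, to log2 fold changes of -5.01 and -5.24.

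The response differed between the Ctnnb1-mutated and other tumors in a direct test by edgeR for 6 genes, with log2 differences of 5.57 for Glul, 6.25 for Oat, 6.61 for Rhbg, 6.96 for Slc1a2, 3.89 for Slc1a5, and -4.85 for Gls2. Both Ctnnb1-mutated tumors lay on the same side of all 4 other tumors for each of these genes. This also held within p21+/Tert mice, where the 2 tumors without a Ctnnb1 mutation averaged 146 CPM of Glul, 8.42 of Slc1a2, and 184 of Gls2, against 9905, 1929, and 7.69 in the 2 with it. The share of all genes that separate these tumors in this way was not counted. Since the 6 genes were picked by the test of the same libraries, the separation is a description and adds no support.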

How the results depend on the processing

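With only 2 Ctnnb1-mutated tumors and 2 p21+/TertCi mice, fits that leave an arm with 1 library assume that it varies like the other groups. DESeq2 called 2407 genes between tumors and livers (edgeR 1477), with 3 of the 8 genes (edgeR 1), and 2126 in the Ctnnb1-mutated tumors, 1051 higher and 1075 lower (edgeR 759 and 486). It called 3111 between tumor classes, 105 between Egfr or Hras and neither, and 99, 161, and 20 between genotypes in livers, in tumors, and in the tumor change. With every gene of at least 1 count, 5 genes differed between genotypes in livers. Fits of only the libraries compared gave 839 genes between tumor classes and 0 between genotypes in tumors. Tumors named HCC alone against livers, which keeps T-HCC663, gave 1298 genes and 2 of the 8.

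Mouse as a block (the pairing of tumor and liver, 6 pairs) left 441 genes between tumor classes and changed the calls of Oat and Slc1a2 in the Ctnnb1-mutated tumors, and with 6 pairs no other call of the 8 genes. Over all tumors it reversed values that were not called: Glul -1.27, Oat -2.70, Rhbg -0.26, and Slc1a2 -2.41. With the block over 5 pairs, without T-HCC662 and p_961, these were -2.06, -3.68, -1.09, and -3.56, and 29 genes with 1 of the 8 were called in the Ctnnb1-mutated tumor left, and 77 with 2 of the 8 between classes. With either block (6 or 5 pairs), Glud1 turned to -0.16 and -0.16 in the other tumors, Slc1a5 to -0.22 and -0.22 between Egfr or Hras and neither, and in the tumor change of the genotypes Glud1 to 0.19 and 0.19 and Slc1a4 to 0.25 and 0.24.

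Leaving out each library in turn gave 863 (without p_961) to 1988 genes between tumors and livers, with 942 without T-HCC941, and 1 to 2 of the 8. It gave 410 (without T-HCC662) to 1329 in the Ctnnb1-mutated tumors, with 595 without T-HCC663, and 1815 (without T-HCA992) to 3618 in the other tumors, with 2239 without TCi-HCC981. Between classes it gave 437 (without T-HCC662) to 1653, with 886, 1020, and 954 without T-HCC663, T-HCA992, and TCi-HCC981. It gave 0 to 5 between Egfr or Hras and neither, and 0 to 7 and 0 to 1 between genotypes in livers and tumors. Values that were not called changed sign. Over all tumors, Glud1 ran from -0.23 to 0.075 and Oat from -0.83 to 0.66. Glud1 ran from -1.43 to 0.10 in the Ctnnb1-mutated tumors, -0.38 to 0.31 in the other tumors, and -1.47 to 0.039 between classes. Between Egfr or Hras and neither, Gls2 ran from -0.59 to 0.58, Glud1 from -1.18 to 0.21, Oat from -1.86 to 0.24, Slc1a2 from -4.35 to 0.25, and Slc1a4 from -0.39 to 0.41. Between genotypes in livers, Glul ran from -0.28 to 0.005, Slc1a4 from -0.059 to 0.64, and Slc1a5 from -1.17 to 0.11, and in tumors Oat from -0.62 to 1.75, Slc1a2 from -2.22 to 3.03, Slc1a4 from -0.18 to 0.51, and Slc1a5 from -0.47 to 0.47. In the tumor change, Glud1 ran from -0.53 to 0.68, Slc1a2 from -1.70 to 3.54, Slc1a4 from -0.50 to 0.24, and Slc1a5 from -0.082 to 1.25. The cause of these changes was not tested.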
